A study of Rattus norvegicus with 6 samples.

Results

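Heat shock proteins and their co-chaperones were examined in rat myocardium 6 h after coronary ligation. The members were all genes on the array whose symbols begin with Hspa, Hspb, Hspd, Hspe, Hsph, Hsp90, Dnaja, Dnajb or Dnajc, together with Bag1 to Bag6, Hsf2 and Cryab. This gave 71 genes read by 74 probes, out of 13876 named genes. Of these, 68 genes entered the test, which asked for a signal well above background on every array of the border zone, the sham group or both, out of 11001 named genes tested. Of the 68, 61 had such a signal on all 6 arrays, and 7 entered through the border zone arrays alone (Dnajc5g, Dnajc9, Dnajb13, Bag4, Dnajc27, Dnajc19 and Dnajb7). Dnajb8, Dnajc13 and Dnajc5b stayed below background and were not tested. Hspa1a, Hspa1b, Hspa1l, Dnajb1, Dnajb14, Dnajc1, Dnajc6 and Hsf1 matched no probe and were not analysed here, so the most heat-inducible HSP70 genes and their main regulator are outside this account.

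The animals were male Wistar rats, and no transgene or drug was used per the labels. In the infarct group, the left anterior descending artery of the heart was ligated, and 6 h later the rim of tissue around the infarct was located by TTC and EB staining and taken for RNA (arrays M17, M24 and M25). The sham group went through surgery without infarction and gave myocardium at 6 h (arrays C4, C5 and C6). Each group had 3 arrays, 1 per rat per the labels, hybridised with Cy3-labelled cRNA on 1-colour Agilent arrays. Because whole tissue was sampled, fewer cells of a type and less RNA per cell cannot be told apart in any value below.

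Heat shock proteins are chaperones that bind unfolded protein and help it to fold, to be stored or to be degraded. HSP70 proteins do this in cycles of ATP hydrolysis, which DnaJ proteins start by delivering clients. Nucleotide exchange factors (the HSP110 proteins and Bag1 to Bag5 among them) end the cycle by releasing the clients. HSP90 finishes the folding of kinases and receptors, the small heat shock proteins hold unfolding protein without ATP, and the chaperonin of Hspd1 and Hspe1 folds protein inside mitochondria. Protein damage in the cytosol activates heat shock factors, which bind heat shock elements in promoters, while unfolded protein in the endoplasmic reticulum acts through separate factors on endoplasmic reticulum stress elements. Heart muscle carries high amounts of several small heat shock proteins, which sit on its filaments and Z discs.

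Some arrays stood apart. The share of probes well above background was 74.3% to 78.3% in the border zone, 73.7% for C4, 51.0% for C5 and 52.4% for C6, and no spot was saturated. The 3 border zone arrays and C4 were read in 1 scan, and C5 and C6 in a scan each, so differences are also given against C4 alone, a comparison that holds no spread between sham animals. Markers of central nervous tissue had median log2 signals of -0.35 on C5 and -0.02 on C6, against -6.80 on C4 and -7.46 to -6.42 in the border zone, which the myocardium label of C5 and C6 does not account for. Of the 68 members tested, none exceeded its C4 signal by 2-fold or more on C5 and C6 alike, beside 491 of all 11001 genes tested. Whether the members carry smaller amounts of such signal was not tested. M25 lay between M17 and M24 for 558 of the 572 probes on which those arrays differed by over 2-fold (97.6%), so its standing as a separate animal is in doubt. The same held for 51 of the 68 members, beside 70.5% of all probes tested. The 11 cardiomyocyte markers tested had array medians of 6.29 to 6.58 on all 6 arrays, and none passed the test.

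Of the 68 members tested, 15 rose in the border zone and 3 fell. Among the 15 is Dnajb7, which entered the test through the border zone alone, so its rise is not independent of that filter. The share that rose was 22.1%, where 9.90% of all genes tested were higher, and the share that fell was 4.41%, where 11.9% of all genes were lower. The median log2 difference of the members was 0.22 (0.23 against C4), beside -0.05 for all genes, and 46 of the 68 lay above 0. In 34 of the 68 members (background 21.4%) every border zone array was above every sham array, and in 7 (10.3%, background 25.4%) every border zone array was below. Against C4, 12 members were higher (background 8.79%) and 4 lower (background 8.44%). Without C4, 19 rose (background 19.3%) and 5 fell (background 22.1%). Without M25, 1 member rose (Hspb1, background 2.10%) and 1 fell (Dnajc28, background 1.57%), shares near those of all genes. The share that rose was also near that of all genes without M17 (4.41%, background 4.45%) and without M24 (2.94%, background 3.86%). Without C5 it was 5.88% (background 4.57%). Hspb1 and Dnajc28 passed in all 6 fits that left out an array, Bag2 in 5, Bag3 and Dnajc14 in 3, and the other 13 in 0 to 2. A difference passed at an adjusted p below 0.05 in limma, adjusted by Benjamini-Hochberg over the whole set of tested probes.

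**Figure D1:**
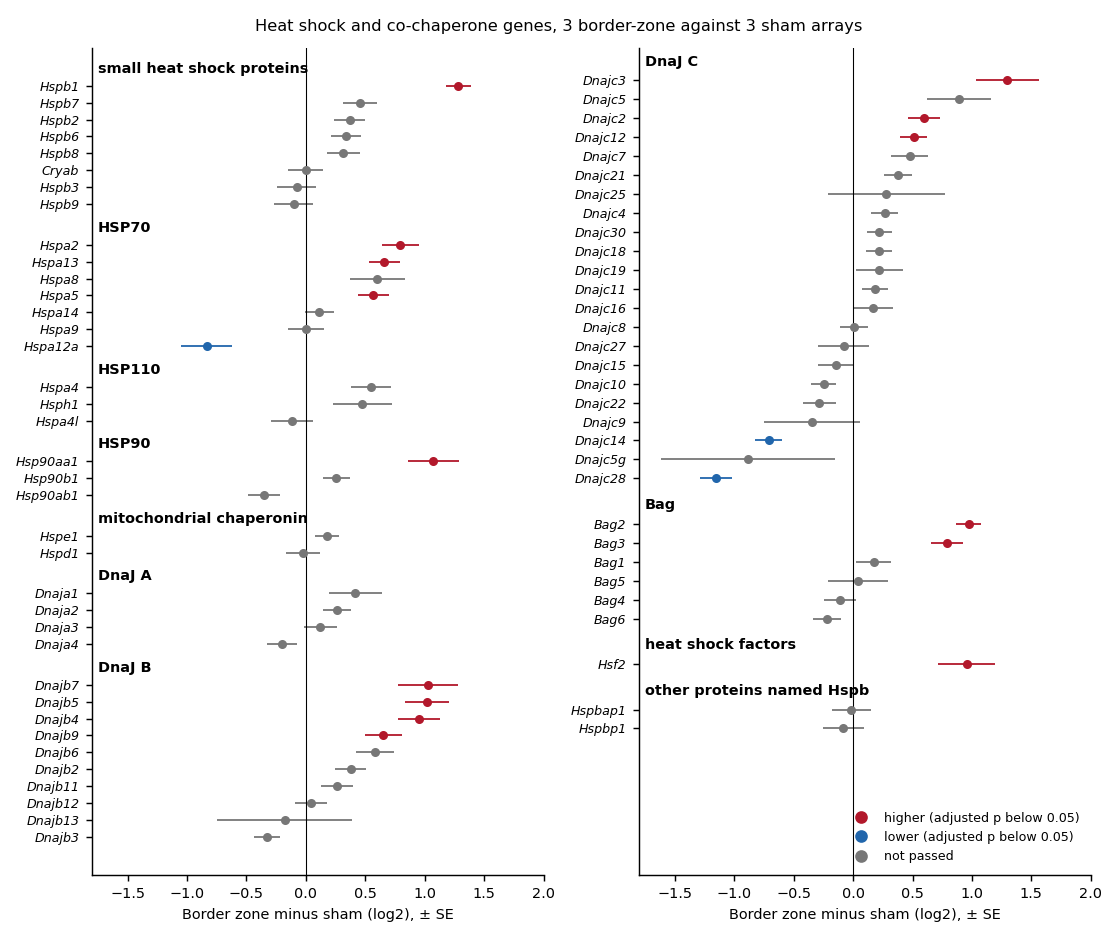
Difference between border zone and sham (log2, horizontal axis) for each of the 68 members tested, by family, with the standard error of the limma fit as bars and n = 3 arrays per group. Red marks the 15 genes that rose, blue the 3 that fell and grey those that did not pass. Small heat shock proteins, HSP70 and DnaJ B genes lie mostly to the right of 0, and the chaperonin genes lie close to 0.

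The gains were spread over families rather than filling any of them. Over all genes tested, 9.90% were higher and 11.9% lower. Of 8 small heat shock proteins 1 rose (12.5%), and of 7 HSP70 genes 3 rose (42.9%) and 1 fell (14.3%). Of 3 HSP90 genes 1 rose (33.3%), and of 10 DnaJ B genes 4 rose (40.0%). Of 22 DnaJ C genes 3 rose (13.6%) and 2 fell (9.09%), and of 6 Bag genes 2 rose (33.3%). Hsf2, the only heat shock factor tested, rose. The shares of the small heat shock and DnaJ C genes were near those of all genes. No gene passed among 4 DnaJ A genes, 3 HSP110 genes, the 2 chaperonin genes and the 2 other proteins named Hspb (Hspbp1 and Hspbap1). Against C4, the median difference was 0.13 for HSP70, 0.25 for HSP90, 0.64 for HSP110 and 0.18 for small heat shock genes, beside -0.05 for all genes.

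**Figure D2:**
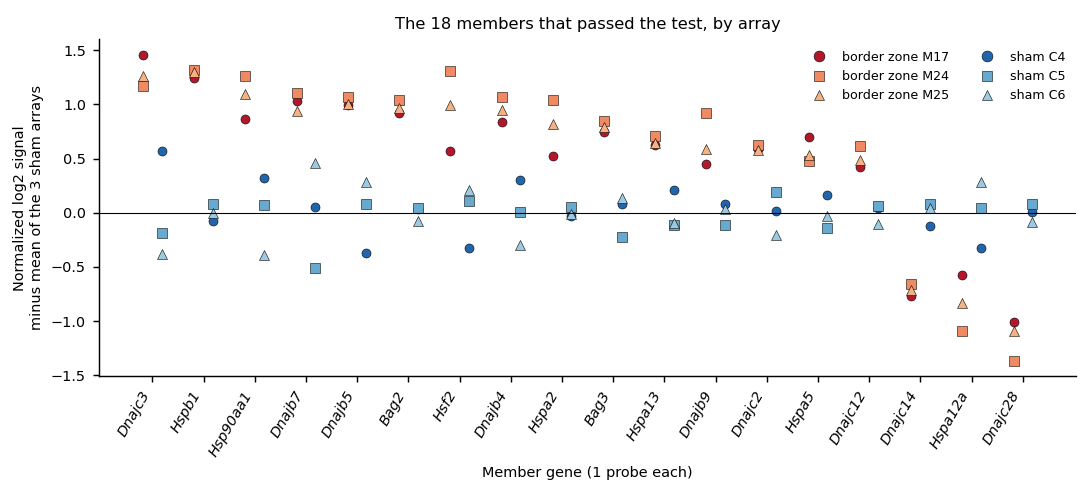
Normalized log2 signal of each array minus the mean of the 3 sham arrays (vertical axis) for the 18 members that passed, ordered by their difference. Border zone arrays are red and orange, sham arrays blue. The groups do not overlap for any of the 18 genes, sham C4 stands highest of the sham arrays for Dnajc3, Hsp90aa1, Dnajb4, Hspa13 and Hspa5, and lowest for Dnajb5, Hsf2 and Hspa12a, among others.

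Hspb1 (HSP27), which holds unfolding protein and binds actin filaments, showed the firmest rise of the family. Signals here are on the log2 scale relative to the 75th percentile of each array, so that 0 is as bright as that percentile. Hspb1 read 6.34, 6.41 and 6.39 on M17, M24 and M25, against 5.03, 5.18 and 5.09 on C4, C5 and C6. All border zone arrays were thus well above all sham arrays, and neither group varied much within itself. The difference was 1.28 ± 0.10 (SE of the limma fit, n = 3 arrays per group, adjusted p = 0.00222), a 2.43-fold rise, and 1.36 against C4 (adjusted p = 0.0122). It passed when any of the 6 arrays was left out, with adjusted p between 0.00111 and 0.0330. With both M25 and the scans of C5 and C6 left out, the difference was 1.35 and its adjusted p 0.0929. Its promoter matches a head-to-head pair of GAA and TTC units at 2 places and is shown here because Hspb1 had the most stable rise. Bases are those before the annotated start in RefSeq (GRCr8), and capitals mark GAANNTTC.
Hspb1 promoter, chr12:26432302-26432451, minus strand: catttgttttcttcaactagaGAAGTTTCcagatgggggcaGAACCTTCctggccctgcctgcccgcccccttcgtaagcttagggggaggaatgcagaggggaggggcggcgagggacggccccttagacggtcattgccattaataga

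The other small heat shock proteins of muscle moved less. Hspb7, the cardiovascular member of the family, read 6.39, 6.27 and 6.30 in the border zone and 5.69, 5.79 and 6.11 in sham. The groups did not overlap, but sham C6 came near the border zone, and the difference of 0.46 ± 0.14 did not pass (adjusted p = 0.0774). Against C4 it was 0.63 (adjusted p = 0.0362). Hspb8, the partner of Bag3 in clearing damaged filament protein, read 5.47, 5.63 and 5.55 against 5.11, 5.14 and 5.46, a difference of 0.32 ± 0.14 (adjusted p = 0.159, 0.44 against C4). Hspb6, a small heat shock protein phosphorylated downstream of cyclic AMP, differed by 0.34 ± 0.13, and Hspb2, a binding partner of myotonic dystrophy protein kinase, by 0.37 ± 0.13, with groups that did not overlap and adjusted p of 0.114 and 0.0982 (0.19 and 0.17 against C4). Cryab, the αB-crystallin of the Z disc, read 6.13, 6.04 and 6.01 against 6.07, 5.83 and 6.30. The groups overlapped fully, with a difference of -0.00 ± 0.15 (adjusted p = 0.991, -0.00 against C4). Hspb2 and Cryab are neighbouring genes in the RefSeq table, and their differences were 0.37 and -0.00. Hspb3 (-0.08, -0.10 against C4) and the testis protein Hspb9 (-0.10, 0.17 against C4) did not pass either.

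Among the cytosolic chaperones that do the main folding work, the inducible HSP90 gene rose and the constitutive one did not. Hsp90aa1 read 5.24, 5.64 and 5.48 on the border zone arrays and 4.70, 4.46 and 3.99 on the sham arrays. All border zone arrays were above all sham arrays, with C4 the nearest. The difference was 1.07 ± 0.22 (2.10-fold, adjusted p = 0.0248), and 0.76 against C4 (adjusted p = 0.0720). Hsp90ab1, which folds kinases and receptors in unstressed cells, read 2.85, 2.64 and 2.75 against 2.90, 3.21 and 3.19. Every border zone array was below every sham array, C4 by little, and the difference of -0.36 ± 0.14 did not pass (adjusted p = 0.117, -0.16 against C4). Its other probe gave -0.37. Without C4 it passed as lower, and Hsp90aa1 passed with adjusted p = 0.00915. Without M25 the adjusted p of Hsp90aa1 was 0.118. The RefSeq table lists 16 pseudogenes named after Hsp90aa1 and 23 named after Hsp90ab1, and whether the probes also read these was not tested.

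Hspa8, the constitutive HSP70 of the cytosol, depended on the sham array it was set against. It read 5.84, 5.64 and 5.66 in the border zone, 5.601 on C4, 4.86 on C5 and 4.87 on C6. C4 lay just under the border zone, and C5 and C6 far under it. The difference was 0.60 ± 0.23 (adjusted p = 0.119), 0.11 against C4 (adjusted p = 0.568) and 0.85 without C4 (adjusted p = 0.00448). The table lists 33 pseudogenes named after Hspa8, and their part in the signal was not tested. Hsph1, an HSP110 protein that releases clients from HSP70, read 1.69, 2.57 and 2.21 against 1.52, 1.87 and 1.65. M24 was high and M17 fell within the sham range, and the difference was 0.47 ± 0.25 (adjusted p = 0.222, 0.64 against C4). Dnaja1, the DnaJ partner of HSP70 in protein import and folding, varied in the same way between border zone arrays, with 3.51, 4.28 and 3.92 against 3.31, 3.52 and 3.64. Its difference was 0.41 ± 0.22 (adjusted p = 0.235, 0.59 against C4). The promoters of Hspa8 and Hsph1, which did not pass over all sham arrays, are shown because they hold the full heat shock element of 3 units. Capitals mark GAA, TTC and GAA with 2 bases between units, or the reverse complement TTC, GAA and TTC (RefSeq, GRCr8).
Hspa8 promoter, chr8:50080274-50080513, plus strand: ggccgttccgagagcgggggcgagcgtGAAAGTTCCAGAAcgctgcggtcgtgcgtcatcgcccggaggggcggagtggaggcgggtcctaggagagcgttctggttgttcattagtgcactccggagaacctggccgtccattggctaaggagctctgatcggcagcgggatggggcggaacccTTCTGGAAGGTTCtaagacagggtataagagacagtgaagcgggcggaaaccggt
Hsph1 promoter, chr12:10427288-10427367, plus strand: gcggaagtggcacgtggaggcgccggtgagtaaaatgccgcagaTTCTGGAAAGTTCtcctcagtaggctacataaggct

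The other HSP70 and HSP110 genes split. Hspa2, an HSP70 best known from the testis, read -1.08, -0.56 and -0.78 in the border zone and -1.64, -1.55 and -1.62 in sham. All border zone arrays were higher, with M24 highest, and the sham arrays were tightly grouped. Hspa2 rose by 0.80 ± 0.16 (1.74-fold, adjusted p = 0.0233, 0.83 against C4 with adjusted p = 0.0881). Hspa4, an exchange factor of the HSP110 family, read 3.42, 3.62 and 3.49 against 2.68, 2.98 and 3.23. The groups did not overlap, and its difference was 0.55 ± 0.17 (adjusted p = 0.0717), or 0.83 against C4 (adjusted p = 0.0309). Hspa4l, its heat-inducible relative, read 0.13, 0.60 and 0.34 against 0.28, 0.45 and 0.70. The groups overlapped, and the difference was -0.12 ± 0.18 (adjusted p = 0.658, 0.08 against C4). Hspa12a, a distant relative of the HSP70 proteins, was the member of the family that fell. It read -0.28, -0.80 and -0.54 in the border zone against -0.03, 0.34 and 0.58 in sham, with all border zone arrays lower and M17 close to C4. The fall was -0.83 ± 0.21 (adjusted p = 0.0461), and -0.50 against C4 (adjusted p = 0.209). Without M25 the adjusted p was 0.123 for Hspa2 and 0.167 for Hspa12a. With another background correction (normexp), neither passed. Hspa2 then differed by 0.43 (adjusted p = 0.127) and Hspa12a by -0.70 (adjusted p = 0.0560).

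Of 11 listed chaperones of the endoplasmic reticulum tested, 4 rose (background 9.90%) and none fell (background 11.9%). In 7 every border zone array was above every sham array (background 21.4%), and in 1, Dnajc10, every one was below (background 25.4%). The list does not hold Dnajc14, which helps receptors leave this compartment and which fell (-0.71 ± 0.11, -0.59 against C4). Dnajc3 (p58IPK), a lumenal DnaJ protein that serves BiP, led the list over all sham arrays. It read 1.08, 0.79 and 0.88 in the border zone, 0.19 on C4, -0.57 on C5 and -0.76 on C6. C4 was the closest sham array and the other two lay far lower. The rise was 1.30 ± 0.27 (2.45-fold, adjusted p = 0.0254), and 0.73 against C4 (adjusted p = 0.0534). Hspa5 (BiP), the HSP70 of the lumen, read 5.52, 5.29 and 5.35 against 4.98, 4.68 and 4.79, with every border zone array above every sham array. Its rise was 0.57 ± 0.13 (1.48-fold, adjusted p = 0.0362), and 0.40 against C4 (adjusted p = 0.119). Hspa13, an HSP70 of microsomes without a client-binding domain, read 1.43, 1.51 and 1.44 against 1.01, 0.68 and 0.70, and again C4 was the nearest sham array. It rose by 0.66 ± 0.13 (adjusted p = 0.0236, 0.45 against C4 with adjusted p = 0.0569). Dnajb9 (ERdj4), which hands misfolded protein to degradation, read 1.72, 2.19 and 1.86 against 1.35, 1.15 and 1.31. It rose by 0.65 ± 0.16 (adjusted p = 0.0388, 0.57 against C4 with adjusted p = 0.151).

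None of these 4 rises passed against C4 alone or without M25, where the adjusted p were 0.112 for Dnajc3, 0.153 for Hspa5, 0.126 for Hspa13 and 0.146 for Dnajb9. Without C4 all of them passed, Dnajc3 with a difference of 1.58 (adjusted p = 0.00161). Of the rest of the list, Hsp90b1 (GRP94), the HSP90 of the lumen, differed by 0.25 ± 0.11 (adjusted p = 0.166, 0.25 against C4). Dnajb11 (ERdj3), which carries clients to BiP, differed by 0.26 ± 0.13 (0.44 against C4), and Dnajc10 (ERdj5), which reduces disulfides of misfolded protein, by -0.25 ± 0.11 (-0.30 against C4), and neither passed. Dnajc25 read -0.15, 0.03 and -0.10 in the border zone, 0.70 on C4, -0.46 on C5 and -1.31 on C6. The sham arrays of this gene enclosed the border zone, with a difference of 0.28 ± 0.49 over all sham arrays and -0.77 against C4 (adjusted p = 0.0324).

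The promoters of Hspa5, Dnajc3 and Hsp90b1 hold the endoplasmic reticulum stress element, and they are shown because Hspa5 and Dnajc3 rose while Hsp90b1 did not pass. Capitals mark CCAAT and CCACG with 9 bases between them, or the reverse complement CGTGG and ATTGG (RefSeq, GRCr8, bases before the annotated start).
Hspa5 promoter, chr3:38452916-38453015, plus strand: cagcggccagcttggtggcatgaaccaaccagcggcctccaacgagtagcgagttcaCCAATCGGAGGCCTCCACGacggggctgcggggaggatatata
Dnajc3 promoter, chr15:102432517-102432666, plus strand: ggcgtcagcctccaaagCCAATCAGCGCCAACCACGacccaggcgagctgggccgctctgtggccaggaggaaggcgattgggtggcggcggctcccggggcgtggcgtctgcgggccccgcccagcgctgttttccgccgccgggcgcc
Hsp90b1 promoter, chr7:23012294-23012493, minus strand: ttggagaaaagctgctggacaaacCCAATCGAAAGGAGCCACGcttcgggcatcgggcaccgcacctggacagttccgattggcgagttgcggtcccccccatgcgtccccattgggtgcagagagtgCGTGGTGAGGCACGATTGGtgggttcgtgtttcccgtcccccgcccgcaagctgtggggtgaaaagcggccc

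Of 10 mitochondrial members tested, none passed as higher and 1, Dnajc28, fell, counts near the shares of all genes tested (9.90% and 11.9%). The differences of 7 lay above 0, and in 4 every border zone array was above every sham array (background 21.4%). The chaperonin Hspd1 (HSP60) read 5.54, 5.26 and 5.35 against 5.59, 5.26 and 5.37, so that the groups overlapped entirely and the difference was -0.02 ± 0.14 (adjusted p = 0.915, -0.20 against C4). The RefSeq table lists 20 pseudogenes named after Hspd1, whose part in its signal was not tested. Its lid Hspe1 (HSP10) read 4.73, 4.68 and 4.66 against 4.48, 4.47 and 4.58. Every border zone array was higher by a little, and the difference of 0.18 ± 0.10 did not pass (adjusted p = 0.260, 0.21 against C4). Hspa9 (mortalin), the HSP70 that pulls protein into the matrix, differed by 0.00 ± 0.15 (-0.11 against C4), and Dnaja3, a matrix partner of Hspa9, by 0.12 ± 0.14 (-0.04 against C4), and neither passed. Dnajc19 (0.22, 0.27 against C4) and Dnajc15 (-0.14, -0.08 against C4), DnaJ proteins of the import motor, did not pass, nor did Dnajc30 (0.22, 0.25 against C4) and Dnajc11 (0.18, 0.27 against C4). Hspd1 and Hspe1 lie head to head and share the stretch below, which holds overlapping 3-unit heat shock elements. It is shown for these elements, and neither gene passed. Capitals mark the overlapping matches on the 2 strands (RefSeq, GRCr8).
Hspe1 promoter, chr9:64084227-64084326, plus strand: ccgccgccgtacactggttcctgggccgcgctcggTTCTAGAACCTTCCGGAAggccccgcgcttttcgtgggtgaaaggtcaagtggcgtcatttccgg

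Dnajc28, a mitochondrial DnaJ protein of little-known function, had the firmest fall. It read -2.24, -2.60 and -2.33 in the border zone and -1.23, -1.16 and -1.32 in sham. All border zone arrays were below all sham arrays, by more than the spread of either group. The fall was -1.15 ± 0.14 (2.22-fold, adjusted p = 0.00560), and -1.16 against C4 (adjusted p = 0.0331). It passed when any of the 6 arrays was left out, with a highest adjusted p of 0.0486, without M25. With both M25 and the other scans left out it was -1.20 and did not pass (adjusted p = 0.139).

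The DnaJ B proteins of the cytosol held several rises. Dnajb5, a cytosolic partner of HSP70, read 3.32, 3.39 and 3.33 in the border zone and 1.96, 2.41 and 2.61 in sham. The border zone arrays were tightly grouped above all sham arrays, of which C4 was the lowest. The rise was 1.02 ± 0.19 (2.03-fold, adjusted p = 0.0187), and 1.39 against C4 (adjusted p = 0.0119). Dnajb4, a heat-inducible member of this class, read 1.13, 1.35 and 1.24 against 0.59, 0.29 and -0.01, without overlap. Its rise was 0.95 ± 0.18 (adjusted p = 0.0207), and 0.65 against C4 (adjusted p = 0.0485). Dnajb6, which keeps protein from aggregating, read 2.55, 2.35 and 2.42 against 2.14, 1.75 and 1.68. The groups did not overlap, yet the difference of 0.58 ± 0.16 did not pass (adjusted p = 0.0538, 0.30 against C4). Dnajb7 read -3.01, -2.94 and -3.10 against -3.99, -4.55 and -3.58, with signal above background on 2 of the 3 sham arrays. Dnajb7 thus entered the test through the border zone alone, so its rise is not independent of that filter. It rose by 1.03 ± 0.25 (adjusted p = 0.0412, 0.97 against C4), but by 0.10 with another background correction (normexp), which ended the call. Without M25, the adjusted p of Dnajb5, Dnajb4 and Dnajb7 were 0.0999, 0.108 and 0.140. Dnajb13, a DnaJ protein known from the testis, read -5.70, -5.93 and -5.85 in the border zone and was not well above background on any sham array, so no direction is read from it.

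The DnaJ C genes outside the endoplasmic reticulum and mitochondrial lists moved in both directions. Dnajc2, which works on the ribosome together with Hspa14, read 1.18, 1.22 and 1.17 in the border zone against 0.61, 0.79 and 0.39 in sham. The groups did not overlap, and it rose by 0.60 ± 0.14 (adjusted p = 0.0340, 0.58 against C4 with adjusted p = 0.0348). Hspa14 itself differed by 0.11 ± 0.12 (0.13 against C4) and did not pass. Dnajc12, a co-chaperone of the aromatic amino acid hydroxylases, read 1.438, 1.631 and 1.504 against 1.06, 1.07 and 0.91. It rose by 0.51 ± 0.11 (adjusted p = 0.0324, 0.47 against C4 with adjusted p = 0.0770). Dnajc14, which helps receptors leave the endoplasmic reticulum, read -1.29, -1.19 and -1.24 against -0.65, -0.45 and -0.48. Every border zone array was lower, and the fall was -0.71 ± 0.11 (adjusted p = 0.0124, -0.59 against C4 with adjusted p = 0.0384). Dnajc5, the cysteine string protein of secretory vesicles, read -1.10, -1.20 and -1.19 against -1.83, -1.67 and -2.66. C6 was far below the other sham arrays, and the difference of 0.89 ± 0.27 did not pass (adjusted p = 0.0697), while against C4 it was 0.67 (adjusted p = 0.0324). Without M25 the adjusted p was 0.151 for Dnajc2, 0.158 for Dnajc12 and 0.0969 for Dnajc14. With normexp Dnajc12 differed by 0.46 and did not pass (adjusted p = 0.0610).

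Of the Bag proteins, of which Bag1 to Bag5 are listed as releasing clients from HSP70, Bag2 and Bag3 rose and the other 4 did not pass. Bag2, which also blocks the ubiquitin ligase CHIP, read 3.20, 3.32 and 3.24 in the border zone and 2.31, 2.33 and 2.20 in sham. The groups were compact and far apart, and the rise was 0.97 ± 0.11 (1.96-fold, adjusted p = 0.00454), or 0.94 against C4 (adjusted p = 0.0194). It passed in 5 of the 6 fits that left out an array, and without M25 its adjusted p was 0.0510. Bag3, which with Hspb8 sends damaged filament protein to autophagy, read 4.82, 4.93 and 4.87 against 4.17, 3.86 and 4.22, without overlap. It rose by 0.79 ± 0.14 (1.73-fold, adjusted p = 0.0157, 0.71 against C4 with adjusted p = 0.0291), and without M25 its adjusted p was 0.100. Bag1 (0.17 ± 0.15, 0.32 against C4), Bag5 (0.04 ± 0.25, 0.54 against C4), Bag4 (-0.11 ± 0.14, -0.29 against C4) and Bag6 (-0.22 ± 0.12, -0.11 against C4) did not pass. The list of 9 exchange factors tested holds Bag1 to Bag5, the HSP110 genes and Hspbp1, and of these Bag2 and Bag3 rose (background 9.90%). The Bag3 promoter is shown as that of the partner of Hspb8, with its GAANNTTC in capitals (RefSeq, GRCr8).
Bag3 promoter, chr1:192533310-192533459, plus strand: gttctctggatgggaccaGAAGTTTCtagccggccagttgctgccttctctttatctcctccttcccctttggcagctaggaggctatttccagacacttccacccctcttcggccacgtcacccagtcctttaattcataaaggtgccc

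Hsf2, a heat shock factor that can form mixed trimers with Hsf1, rose but varied widely. It read 2.61, 3.35 and 3.04 in the border zone and 1.72, 2.16 and 2.26 in sham. All border zone arrays were above all sham arrays, with M17 near C6. The rise was 0.95 ± 0.24 (1.94-fold, adjusted p = 0.0438), and 1.28 against C4 (adjusted p = 0.0716). It passed in none of the 6 fits that left out an array, where the adjusted p lay between 0.0510 and 0.163, the highest without M25.

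Genes known as classic targets of heat shock factor 1 moved in part. Of 13 such members tested, from 16 listed, 4 rose (Hspb1, Hsp90aa1, Dnajb4 and Bag3, background 9.90%), none fell (background 11.9%) and 9 did not pass, with a median difference of 0.41 (0.44 against C4). Against C4, 3 were higher (background 8.79%), and without M25, 1 (background 2.10%). By comparison, the 11 endoplasmic reticulum members had a median of 0.26 (0.25 against C4) and the 10 mitochondrial members one of 0.15 (0.07 against C4), beside -0.05 over all genes tested. These lists overlap in the chaperonin genes, and their difference from each other was not tested.

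Promoter sequences could be matched for 57 of the 71 members, as windows of 300 bases around the start, and were searched on both strands. The 3-unit heat shock element was found in 5 members (8.77%: Dnaja1, Hspa8, Hspd1, Hspe1 and Hsph1) and in 0.736% of the 27457 promoters in the table. Of the 57 members with a window, 11 rose, 2 fell, 42 did not pass and 2 were not tested. None of the 5 genes with the 3-unit element passed, and it was in 0 of the 11 risen members. Whether motifs and calls go together was not tested. GAANNTTC was found in 13 members (22.8%, 8.34% of all promoters), of which Bag3 and Hspb1 rose. TTCNNGAA was found in 10 members (17.5%, 8.49% of all promoters), of which Hspa2 rose. Each 3-unit match contains both shorter motifs. The endoplasmic reticulum stress element was found in 3 members (5.26%, 0.0765% of all promoters), of which Hspa5 and Dnajc3 rose. Windows for Hsp90aa1, Dnajb4, Dnajc2, Dnajc12, Hspa12a and Cryab were not used here. These matches describe letters in the windows only.

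**Figure D3:**
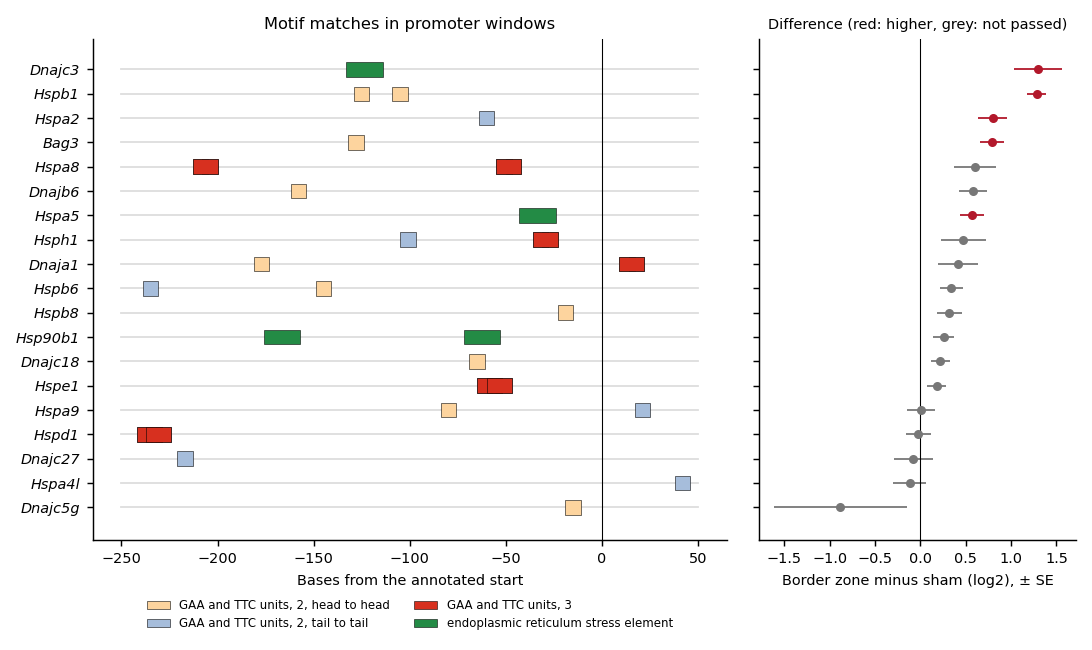
Left, places of the motif matches in the promoter windows of 19 members, in bases from the annotated start (horizontal axis, 250 before to 50 after). Right, the difference between border zone and sham (log2, bars are the standard error, n = 3 arrays per group), red for genes that rose and grey for those that did not pass. Genes with the 3-unit heat shock element (red boxes) all have grey points. Of the 3 with the endoplasmic reticulum stress element (green boxes), 2 have red points. Of all 57 members with a window, 11 rose and 42 did not pass.

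The choice of sham arrays moved some members more than others. C4 differed from the mean of C5 and C6 by over 0.5 in 7 members, above it for Dnajc25, Dnajc3 and Hspa8 and below it for Bag5, Dnajb13, Dnajb5 and Dnajc5g. That is 10.3% of the members, beside 29.6% of all genes tested. Dnajc28, Bag2, Dnajc2 and Dnajc12 gave nearly the same difference by either choice, while Hspa8 went from 0.11 against C4 to 0.85 against C5 and C6. Against C4, the differences of the 15 members that rose ran from 0.40 (Hspa5) to 1.39 (Dnajb5). Their groups do not overlap, so none of them could lie below C4.

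**Figure D4:**
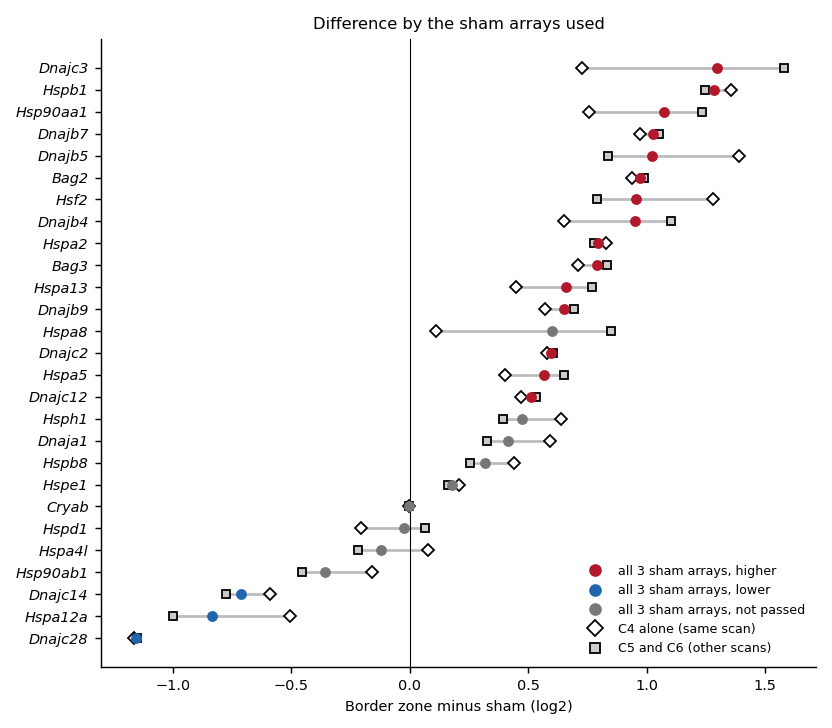
Difference between border zone and sham (log2, horizontal axis) for the members that passed and the classic heat shock genes, computed with all 3 sham arrays (filled circles), with C4 alone (diamonds) and with C5 and C6 (squares). The lines joining them are longest for Dnajc3 and Hspa8 and very short for Cryab, Dnajc28, Bag2 and Dnajc2.

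The border zone arrays also differed among themselves. M24 exceeded M17 by over 0.5 in Dnaja1, Dnajc5g, Hsf2, Hspa2, Hspb3 and Hsph1 and fell short of it by as much in Hspa12a. These 7 are 10.3% of the members, beside 17.1% of all genes tested.

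Other chaperone genes were read from lists of genes that are no members. Of 16 co-chaperones of HSP90 and HSP70, 3 rose (18.8%, background 9.90%) and none fell (background 11.9%), with a median of 0.05. Without C4, 3 rose (background 19.3%) and 3 fell (background 22.1%). Fkbp5, an HSP90 partner that tempers glucocorticoid receptors and is itself induced by glucocorticoids, read 4.79, 3.73 and 4.29 against 1.79, 2.08 and 2.21. All border zone arrays were far above sham, and Fkbp5 rose by 2.25 ± 0.29 (adjusted p = 0.00708, 2.48 against C4, adjusted p = 0.0509 without M25). Cdc37l1, related to the kinase co-chaperone Cdc37, read 2.42, 2.32 and 2.31 against 1.11, 0.87 and 0.75. It rose by 1.44 ± 0.13 (adjusted p = 0.00301, 1.24 against C4) and also passed without M25 (adjusted p = 0.0332). Ptges3 (p23), which closes the HSP90 cycle, rose by 0.65 ± 0.13 (adjusted p = 0.0214, 0.51 against C4). Of 12 subunits of the cytosolic chaperonin TRiC and of prefoldin, Cct6a (0.85 ± 0.12, 0.67 against C4) and Cct7 (0.60 ± 0.12, 0.47 against C4) rose, with a list median of 0.25. That is 16.7% of the list (background 9.90%). Without C4 the share was also 16.7% (background 19.3%). Of the 12 genes, 3 entered the test through the border zone alone.

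The remaining lists held 1 passing gene each, shares near those of all genes tested (9.90% higher and 11.9% lower). Lonp1, a matrix protease, rose by 0.51 ± 0.13 (0.30 against C4) among 13 mitochondrial genes (median 0.00). Ero1a, which forms disulfides in the endoplasmic reticulum, rose by 0.86 ± 0.18 (0.69 against C4) among 14 folding genes of that compartment (median 0.02). Serpinh1 (HSP47), a collagen chaperone and heat shock factor target, fell by 0.73 ± 0.10 (-0.77 against C4) among 10 regulators and other targets of heat shock factor 1 (median 0.06). Lats1 rose by 1.28 ± 0.34 (0.58 against C4) among 8 partners of chaperone-assisted autophagy (median 0.02), with signal above background on 1 of the 3 sham arrays. Lats1 thus entered the test through the border zone alone, so its rise is not independent of that filter. Without M25, none of Ptges3, Cct6a, Cct7, Lonp1, Ero1a, Serpinh1 and Lats1 passed.

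**Figure D5:**
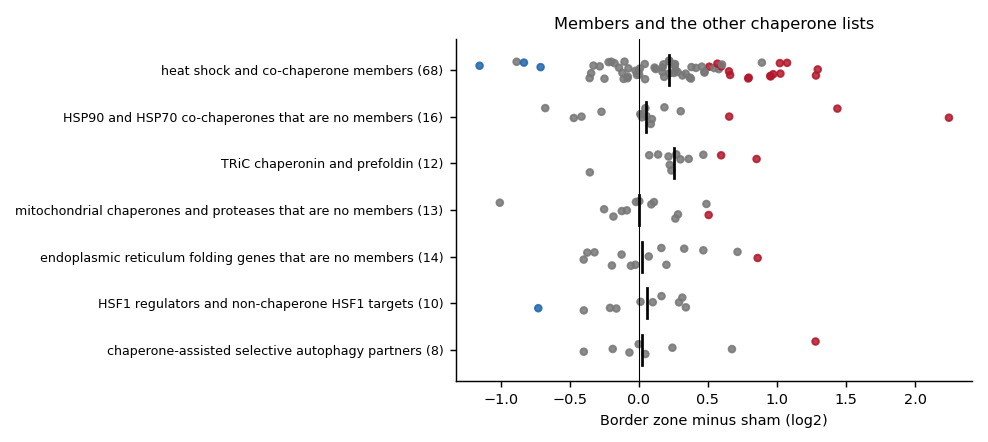
Difference between border zone and sham (log2, horizontal axis) for the members and for the 6 lists of other chaperone genes, 1 point per gene, with the number tested in brackets and a black bar at the list's median. Red points rose, blue points fell and grey points did not pass. The medians of the members (0.22) and of TRiC and prefoldin (0.25) lie above those of the other lists, which run from 0.00 to 0.06.

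Markers of some other cell types differed between the groups. Of 6 neutrophil markers tested 5 rose, with array medians of -3.04 to -2.96 in the border zone and -6.09 to -5.33 in sham. Of these 6, 5 entered the test through the border zone alone, so their differences are not independent of that filter. The sham medians of C5 and C6 lie under the lowest signal called well above background there (-4.49 and -3.98). Of 6 macrophage markers 3 rose and 1 fell, with medians of 0.67 to 1.16 and 0.13 to 0.81. Of 6 fibroblast markers 1 rose and 2 fell, of 4 smooth muscle markers 2 fell and of 4 endothelial markers 1 fell. The 3 red cell markers tested did not pass, nor did the 3 of skeletal muscle and the 3 of testis, while 2 of 5 markers of central nervous tissue fell. The central nervous tissue medians did not follow the groups, being high on C5 (-0.35) and C6 (-0.02) but not on C4 (-6.80). The part of these cell types in the members' differences was not tested.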

How the data were processed

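The members and gene lists were chosen with earlier results of these data known. Per the file headers, spot signals are intensity values from Agilent Feature Extraction 11.0.1.1 (version as in the submitters' processing notes), with background subtracted and no normalization between arrays. The deposited flag columns mark control, outlier, saturated and well-above-background spots with 0 or 1. The authors' deposited value table, whose columns followed the scanner's log2 signals with slopes of 0.97 to 1.02 and had medians of 5.55, was read as log2 and used as an alternative only. Its normalization is not given in the sources used here.

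Processed signals were taken to log2, reduced by each array's 75th percentile and averaged over the usable spots of a probe, without control and outlier spots. Probes well above background throughout the border zone or the sham group, 17930 of 24614, were compared with lmFit and eBayes of limma 3.58.1 (two-sided tests, R 4.3.3, statmod 1.5.0), with Benjamini-Hochberg adjustment over these probes. The limma step was tested on simulated data. A gene was read from its tested probe with the highest mean. Symbols came from RefSeq accessions in a table of GRCr8, which matched 14265 carried probes. The headers name another build (rn4), so coordinates are given for RefSeq promoters only. Every member could be named, and full values were given for those that passed without overlap between groups and for the classic heat shock factor 1 genes. A fit with scan as a block equals a comparison with C4 alone, whose residual spread comes from the border zone arrays only. The alternatives were other scalings, background corrections, filters, probe rules, variance models and sources, scan as a block, and leaving out each array. The normexp alternative used the median spot signal, since the files used here hold no mean signal. Nothing besides the labels says whether samples are separate animals, and p-values measure the spread between these arrays. Figures were drawn with matplotlib 3.10.9 from tables made in Python 3.11.15 with pandas 2.3.3 and numpy 2.4.6.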

Additional observations from a re-analysis of the deposited data

How the results depend on the processing

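The 15 rises and 3 falls among the 68 members depended on which arrays entered. Leaving out 1 array in turn gave 1 to 19 rises and 1 to 5 falls, with the fewest without M25 (1 and 1) and the most without C4 (19 and 5). Without M17 there were 3 and 1 (4.41% and 1.47%, beside 4.45% and 4.47% of all genes). Without M24 there were 2 and 1 (2.94% and 1.47%, beside 3.86% and 4.11%). Without C5 there were 4 and 2 (5.88% and 2.94%, beside 4.57% and 4.84%). Without C6 there were 10 and 2 (14.7% and 2.94%, beside 7.53% and 7.65%). The shares over all genes were 2.10% and 1.57% without M25, and 19.3% and 22.1% without C4. With both M25 and the scans of C5 and C6 left out, limma called 0 members in either direction. Hardly any of all genes passed there either, so this 0 does not set the members apart. That fit sets M17 and M24 against C4 alone and holds no spread between sham animals. Its median difference was 0.23 for the members and -0.04 for all genes. Without a filter on dim probes 5 rose and 2 fell (7.35% and 2.94%, beside 5.41% and 5.81% of all genes). Scaling each array to its median left 1 fall (1.47%, beside 6.09% of all genes) and 18 rises (26.5%, beside 11.4%). It moved the median of all genes from -0.05 to 0.14 and that of the members from 0.22 to 0.41. It also raised the share of higher among all called probes from 46.7% to 67.6%. With normexp the median of all genes was -0.27 and that of the members 0.24. The other settings were quantile normalization, normexp, all 6 arrays above background, the authors' value table, scan as a random block, the mean of a gene's probes, outlier spots kept, and a variance trend. They gave 13 to 21 rises (19.1% to 34.4% of members, beside 6.52% to 15.5% of all genes). Falls numbered 2 to 4 (2.94% to 6.56% of members, beside 8.48% to 21.1% of all genes). With all 6 arrays above background, 21 of 61 members rose. Of the 18 calls, 9 passed with scan as a block, 7 without the filter, 14 with quantile normalization and 14 with normexp. Against C4, Dnajc25 went from 0.28 to -0.77, past the threshold. Dnajb13 went from -0.18 to 0.81, but no direction is read from it, since it was not well above background on any sham array. Some small differences also changed sign, such as that of Hspa4l from -0.12 to 0.08. With 3 arrays per group every value is of limited precision, and the lower share of probes above background on C5 and C6 limits what can be read for dim members. No paired analysis was possible because the groups share no replicate numbers.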
